A study of Homo sapiens with 3 samples.

Results

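The genes described here are 7 members of the pathway that carries growth signals from receptors at the cell surface to the nucleus: the GTPase genes NRAS and HRAS, the exchange factor gene SOS1, the kinase genes BRAF, MAP2K1 and MAP2K2, and MAPK3. They were taken as a fixed list of names, chosen with earlier results of these data known. They are 7 of the 20037 protein-coding genes in the RefSeq table (GRCh38.p14) on the chromosomes covered by the files. The values come from H1299, a human lung cancer line that the labels call lung adenocarcinoma, grown with no treatment named in the labels. Its chromatin was profiled by CUT&RUN, in which an antibody guides a nuclease to its target in nuclei and the released DNA is sequenced. The series has 1 library for SP1, a transcription factor, 1 for H3K27ac, the acetylated histone mark of active promoters and enhancers, and 1 control library with IgG, which was not analysed here. The line is known to carry an activated NRAS. No SP1 or H3K27ac summit was called at any of the 7 genes, which for so short a list is near the background. Among all protein-coding genes, 13.7% had an SP1 summit within 1000 bases of a gene end and 0.848% had an H3K27ac summit there. The SP1 summits around 4 of the 7 genes lay mostly at starts of neighbouring genes.

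In this pathway a receptor recruits SOS1 to the membrane, where it loads RAS proteins with GTP. RAS bound to GTP activates the RAF kinases, of which BRAF is one. RAF phosphorylates the MEK kinases, encoded by MAP2K1 and MAP2K2, and these phosphorylate the ERK kinases, of which MAPK3 encodes ERK1. SP1 binds GC-rich DNA, above all the GC box, and is found at the promoters of many genes that most cells use.

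The data were lists of called summits. A summit is the single base at which a peak was highest, and its score is a −log10 of the p or q value given by the peak caller. There were 5570 SP1 summits, whose median score was 6.17, and 3201 H3K27ac summits, whose median was 5.01. Scores were compared only within a list. The sequencing depth is unknown, and with 1 library per antibody no value has a replicate and no test was possible. A missing summit says that none was called, not that the protein or mark was absent. The H3K27ac list held few summits at promoters: 111 of 3201 (3.47%) lay within 1000 bases of a listed gene start. A called summit says nothing of how strongly a gene was expressed. Gene spans do not tell exons from introns, so a summit inside a gene is given only as inside its span. Of 10 lung and epithelial marker genes, only NAPSA had an SP1 summit within 1000 bases of a gene end (1 of 10, or 10%, beside 13.7% of all protein-coding genes), with a score of 6.69, and none had an H3K27ac summit there. EPCAM had an SP1 summit inside its span, 2167 bases from an end, and SFTPA1 had one outside its span, 2256 bases from an end. Of 6 marker genes of other cell types, 0 had a called summit at an end, but PTPRC had an H3K27ac summit inside its span and SNAP25 had one 4445 bases away. An H3K27ac summit lay within 100 kb of 1 of the 10 lung and epithelial markers (10%) and of 2 of the 6 others (33.3%), beside 24.0% of all protein-coding genes. NKX2-1, SFTPB, EPCAM and CDH1, which define lung and epithelial cells, were among the markers with no summit at an end, so the labelled cell type could not be checked from these lists.

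Promoter sequences of 6 of the 7 pathway genes are shown first, from 1 listed start each, since the GC box is the element that SP1 is known to bind. Each runs 5′ to 3′ and ends at the base before the listed transcription start, and capitals mark GC boxes, the letters GGGCGG or, for the other strand, CCGCCC. Up to 250 bases are given, from RefSeq on GRCh38.p14. NRAS is given with 144 bases, and MAP2K1 is cut where the span of TIPIN ends. For the genes with more than 1 listed start, the promoter shown is one with a box. BRAF, whose listed promoter had 0 boxes, is not printed because that window lies inside its own gene span.
NRAS, chr1:114716772-114716915, minus strand: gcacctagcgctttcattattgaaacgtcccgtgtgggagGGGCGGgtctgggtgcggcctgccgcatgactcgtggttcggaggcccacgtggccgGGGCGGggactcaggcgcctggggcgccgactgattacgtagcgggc
HRAS, chr11:535577-535826, minus strand: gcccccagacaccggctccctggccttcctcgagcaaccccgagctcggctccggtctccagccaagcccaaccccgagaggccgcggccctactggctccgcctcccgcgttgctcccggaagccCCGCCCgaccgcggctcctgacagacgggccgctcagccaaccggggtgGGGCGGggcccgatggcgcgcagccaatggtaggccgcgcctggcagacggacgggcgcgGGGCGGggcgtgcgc
SOS1, chr2:39124869-39125118, minus strand: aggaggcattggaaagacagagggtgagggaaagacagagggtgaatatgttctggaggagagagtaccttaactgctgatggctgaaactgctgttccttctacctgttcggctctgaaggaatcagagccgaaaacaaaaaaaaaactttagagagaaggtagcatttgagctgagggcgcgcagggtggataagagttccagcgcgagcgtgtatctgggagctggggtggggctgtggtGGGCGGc
MAP2K1, chr15:66386718-66386911, plus strand: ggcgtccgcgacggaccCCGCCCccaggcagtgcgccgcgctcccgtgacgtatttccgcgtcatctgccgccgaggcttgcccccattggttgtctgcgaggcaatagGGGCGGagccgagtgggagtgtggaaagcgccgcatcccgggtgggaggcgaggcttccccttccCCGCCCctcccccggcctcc
MAP2K2, chr19:4124123-4124372, minus strand: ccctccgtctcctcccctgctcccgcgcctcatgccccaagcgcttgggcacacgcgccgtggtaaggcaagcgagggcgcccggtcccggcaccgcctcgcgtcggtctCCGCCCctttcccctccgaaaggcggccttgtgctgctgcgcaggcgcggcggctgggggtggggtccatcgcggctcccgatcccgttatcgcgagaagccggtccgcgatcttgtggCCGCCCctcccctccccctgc
MAPK3, chr16:30123221-30123470, minus strand: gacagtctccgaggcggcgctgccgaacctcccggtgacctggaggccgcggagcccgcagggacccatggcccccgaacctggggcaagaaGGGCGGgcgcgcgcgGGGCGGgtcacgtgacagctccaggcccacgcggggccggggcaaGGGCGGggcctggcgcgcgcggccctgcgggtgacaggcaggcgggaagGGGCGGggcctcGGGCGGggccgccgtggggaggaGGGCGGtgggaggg

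For comparison, a pair of promoters is shown whose start lay beside an SP1 summit. PTDSS2, a phosphatidylserine synthase gene, is a neighbour of HRAS and had a summit 14 bases after the listed start shown. ZWILCH, a kinetochore gene, is a neighbour of MAP2K1 and had a summit 123 bases after its start.
PTDSS2, chr11:448018-448267, plus strand: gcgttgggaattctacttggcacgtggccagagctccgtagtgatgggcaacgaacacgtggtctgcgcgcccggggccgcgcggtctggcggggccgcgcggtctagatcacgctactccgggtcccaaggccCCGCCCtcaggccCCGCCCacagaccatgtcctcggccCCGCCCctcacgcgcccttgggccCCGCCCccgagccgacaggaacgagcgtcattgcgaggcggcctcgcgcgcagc
ZWILCH, chr15:66505076-66505325, plus strand: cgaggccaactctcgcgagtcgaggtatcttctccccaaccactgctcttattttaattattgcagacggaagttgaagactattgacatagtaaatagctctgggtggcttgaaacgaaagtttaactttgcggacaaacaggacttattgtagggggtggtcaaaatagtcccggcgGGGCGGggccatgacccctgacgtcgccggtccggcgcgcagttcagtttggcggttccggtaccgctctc

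GC boxes were counted in the listed promoters of 300 bases, 250 before the start and 50 from the start on, on both strands. MAPK3 had the most among the pathway genes, 8, of which 6 are in the stretch printed above. HRAS had 5, NRAS and MAP2K1 had 3 each and MAP2K2 had 2. MAP2K1 and MAP2K2 each have another listed start, whose promoter had 0 boxes. SOS1 has 2 listed starts, with 1 box at the upstream start and 0 at the other. BRAF had 0 in the promoter of its single listed start. Thus 6 of the 7 genes (85.7%) had a box in at least 1 listed promoter, against 64.3% of the 15842 protein-coding genes with a listed promoter. With the longer motif GGGGCGG, which contains the first, the count was 5 of 7 (71.4%), against 47.3%. Counted by promoter, the pathway genes were nearer the background: 6 of their 10 listed promoters (60%) had GGGCGG, against 56.3% of all 22175 listed promoters, and 5 of 10 (50%) had GGGGCGG, against 39.6%. Over all listed promoters, 79.2% of the 701 that held an SP1 summit had the box GGGCGG, against 55.5% of the 21474 that held none. The boxes are matches of letters and not measured sites. Beside a summit, the promoters shown of PTDSS2 and ZWILCH had 5 and 2 boxes in 300 bases, of which 4 and 1 are in the stretches printed. Both counts lay within the range of 0 to 8 in the pathway genes, which had no summit. The pair is an illustration only. The other listed promoter of PTDSS2 had 1 box. Among other neighbours of HRAS with a summit at a start, PHRF1 had 1 box and the listed promoters of RNH1 had 6 and 3.

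No summit of either library lay at any of the 7 genes. For SP1, 0 of 7 had a summit within 1000 bases of either end of the gene span, against 13.7% of all protein-coding genes. Measured from the listed starts it was again 0 of 7, against 14.9% of the 15842 protein-coding genes with a start in the table, and within the gene spans 0 of 7, against 12.7%. For H3K27ac, 0 of 7 had a summit at an end, against 0.848%, at a listed start, against 0.757%, or within the span, against 5.66%. At the share of all genes, 0.961 of 7 genes would have an SP1 summit at an end and 0.0594 an H3K27ac summit, so a count of 0 is near the background for both. A count of 0 of 7 allows a share of up to 41.0% (exact binomial 95% interval, counting error only). The interval takes the 7 genes as independent draws, which a chosen list is not.

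Within 100 kb of the gene span the genes fell into 2 kinds. HRAS, MAP2K1, MAP2K2 and MAPK3 had SP1 summits in that window, 11 in all, and NRAS, SOS1 and BRAF had none. These 4 of 7 genes (57.1%) stand beside 52.6% of all protein-coding genes, which is near the background. H3K27ac summits were found near MAP2K2 and MAPK3, 1 each, which is 2 of 7 (28.6%) beside 24.0% of all genes. The 4 genes kept SP1 summits within 50 kb, beside 41.1% of all genes, while the H3K27ac count was then 0 of 7, beside 15.7%. Within 10 kb of the span there was nothing: 0 of 7 genes had an SP1 summit there, beside 25.5%, and 0 of 7 an H3K27ac summit, beside 7.98%. Within 2500 bases of an end the counts were 0 of 7 for both, beside 15.8% for SP1 and 1.49% for H3K27ac.

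The 4 genes with SP1 summits also had more neighbours. MAPK3 had 14 other protein-coding genes within 100 kb, HRAS 11, MAP2K1 6 and MAP2K2 5, while NRAS and BRAF had 4 each and SOS1 3. Over all protein-coding genes the share with an SP1 summit within 100 kb went with this number. It was 33.4% of genes with 0 to 2 neighbours, 49.1% with 3 to 4, 59.9% with 5 to 6 and 76.8% with 7 to 40. NRAS, BRAF and SOS1 thus belong to the group at 49.1%, MAP2K1 and MAP2K2 to that at 59.9%, and HRAS and MAPK3 to that at 76.8%. The part of gene density in the difference among the 7 genes was not tested. For H3K27ac the same shares were 24.7%, 24.6%, 23.3% and 23.0%, with no such rise.

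**Figure D1:**
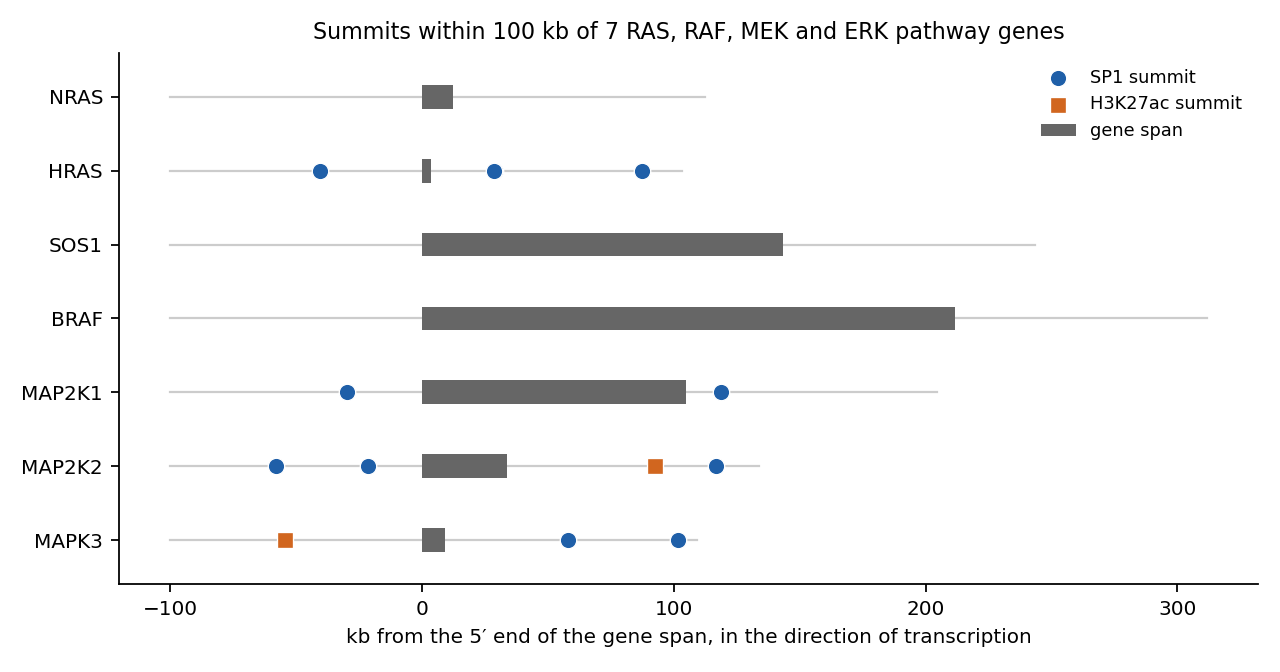
Position of every summit within 100 kb of the 7 genes, in kb from the 5′ end of the gene span in the direction of transcription. Bars are gene spans to scale, thin lines the searched windows, circles SP1 summits and squares H3K27ac summits. NRAS, SOS1 and BRAF have none, no summit lies on a bar, and the 2 SP1 summits at RNH1 near HRAS overlap in the drawing.

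Of the RAS genes, NRAS had no summit in its window and HRAS had 4 of SP1. NRAS lies on chromosome 1 at 114704469 to 114716771, on the minus strand. Its nearest SP1 summit, at 113904905, scored 5.36 and was 799.6 kb away. It lay 106 bases from a listed start of AP4B1, a gene of vesicle transport. Only 10.7% of all protein-coding genes were farther from an SP1 summit. The nearest H3K27ac summit, at 114113582 with a score of 5.10, was 590.9 kb away inside SYT6, and 33.4% of genes were farther. It formed a region of its own that ranked 2168 of 2710 in the authors' list of H3K27ac regions. The gene known to be activated in this line thus had no called SP1 or H3K27ac summit within 100 kb. Of all protein-coding genes, 52.6% had an SP1 summit and 24.0% an H3K27ac summit that near. At a listed start only 0.757% had an H3K27ac summit, so its lack at the start of NRAS is the usual case.

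HRAS lies on chromosome 11 at 532242 to 535576, on the minus strand. Its 4 SP1 summits within 100 kb were the most of the 7 genes. The highest, at 576252 with a score of 34.5, was 40.7 kb upstream of HRAS and 218 bases before the start of PHRF1, inside the span of LOC124902805. PHRF1 encodes a protein with PHD and RING finger domains. This score ranked 56 of 5570, so 99.0% of SP1 summits were lower. The second, at 507138 with a score of 19.4, was 25.1 kb downstream of HRAS and 104 bases after a listed start of RNH1, which encodes an inhibitor of ribonucleases. A further summit lay 381 bases from it, at 506757, with a score of 5.80, 11 bases after a second listed start of RNH1 and 295 bases from an end of LRRC56. The span of LRRC56 runs across HRAS on the other strand. The fourth, at 448282 with a score of 10.1, was 84.0 kb away, at a listed start of PTDSS2. So all 4 summits near HRAS were at starts of other genes, between the 43.6th and the 99.0th percentile of the SP1 list. The nearest H3K27ac summit was 5148.8 kb away, and only 2.14% of protein-coding genes were farther from one.

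SOS1, the exchange factor gene, lies on chromosome 2 at 38981549 to 39124868, on the minus strand. Its nearest summits of both libraries were at nearly the same place, 58 bases apart. The SP1 summit was at 39411613, with a score of 5.14, 286.7 kb upstream. The H3K27ac summit was at 39411671, with a score of 10.1, higher than 97.9% of the H3K27ac list. Both lay inside MAP4K3, a kinase gene, 25672 bases (SP1) and 25614 bases (H3K27ac) from its listed start. The H3K27ac region that held the summit, at 39411470 to 39411865, ranked 210 of 2710. It was the best-ranked of the H3K27ac regions nearest to NRAS, SOS1, BRAF, MAP2K1, MAP2K2 and MAPK3. For HRAS the nearest region, 8827.3 kb away, ranked 141.

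BRAF, the RAF kinase gene, was the farthest from SP1. It lies on chromosome 7 at 140713328 to 140924929, on the minus strand, and is the longest of the 7 genes, with 211.6 kb. The nearest SP1 summit, at 139876231 with a score of 5.21, was 837.1 kb downstream, inside TBXAS1, which encodes thromboxane synthase. The nearest H3K27ac summit, at 147834919 with a score of 4.06, was 6910.0 kb away inside CNTNAP2, a gene of neuronal adhesion. Of all protein-coding genes, 10.1% were farther from an SP1 summit and 1.15% from an H3K27ac summit.

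**Figure D2:**
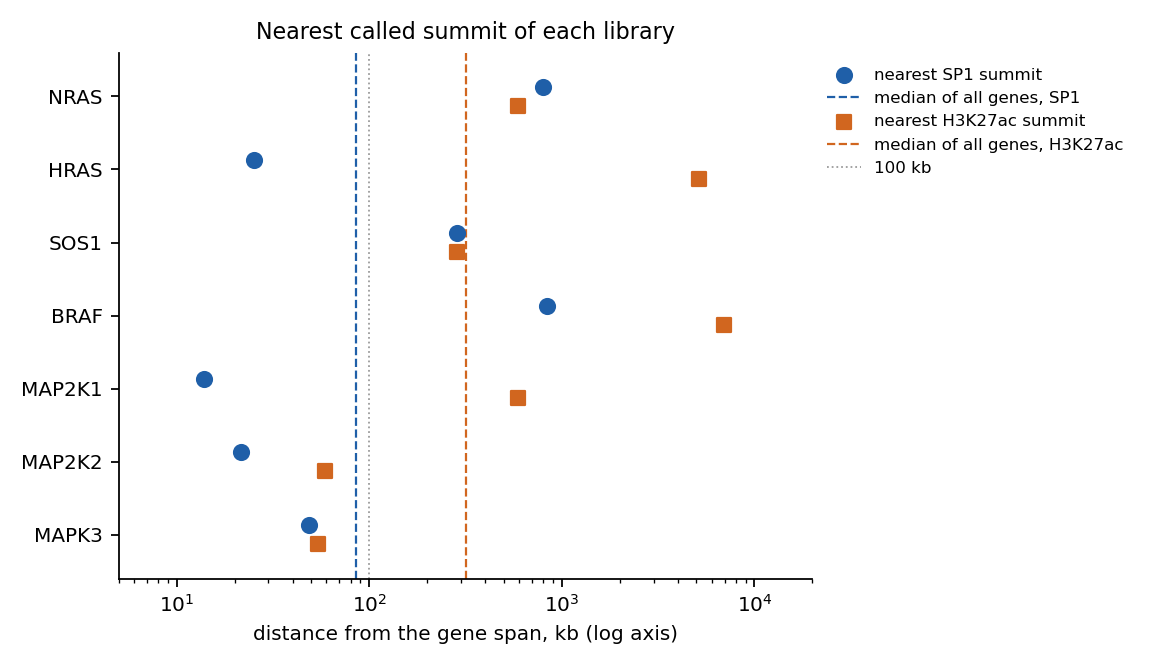
Distance in kb, on a log axis, from the span of each of the 7 genes to the nearest summit of each library. Dashed lines are the medians over all protein-coding genes, 85.7 kb for SP1 and 319.7 kb for H3K27ac. The nearest SP1 summits of HRAS, MAP2K1, MAP2K2 and MAPK3 are within 48.7 kb, and those of NRAS, SOS1 and BRAF at 286.7 kb or more.

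The MEK genes had nearby SP1 summits of middling score. MAP2K1 lies on chromosome 15 at 66386912 to 66491544, on the plus strand. Its nearest SP1 summit, at 66505449 with a score of 6.52, was 13.9 kb past its end, the shortest such distance among the 7 genes. This summit was 123 bases after the start of ZWILCH. It also lay within 1000 bases of the listed start of RPL4, a ribosomal protein gene on the minus strand. The other, at 66357015 with a score of 8.24, was 29.9 kb upstream, inside TIPIN, a replication fork gene. TIPIN is transcribed away from MAP2K1, and its outer start is 195 bases from that of MAP2K1. The summit was not at this shared stretch but 330 bases before the second listed start of TIPIN, far inside the gene. The nearest H3K27ac summit, at 65792603, scored 6.40 and was 594.3 kb away, 310 bases from the start of DENND4A.

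MAP2K2 lies on chromosome 19 at 4090321 to 4124122, on the minus strand, and had 3 SP1 summits in its window. The nearest, at 4145771 with a score of 7.72, was 21.6 kb upstream. It lay between genes, 7860 bases before the start of CREB3L3, which encodes a transcription factor of liver and gut. The authors' SP1 regions held 2454 of all 5570 SP1 summits. Of the 11 SP1 summits near pathway genes, the one at 4145771 was the only 1 that lay in such a region. That region, 465 bases from 4145658 to 4146122, ranked 174 of 2356. The summit at 4182296, with a score of 4.65, was 10 bases after a listed start of SIRT6, a deacylase gene. It also lay within 1000 bases of a listed start of ANKRD24, on the plus strand. The summit at 4007311, with a score of 5.98, was 425 bases before the start of PIAS4, a SUMO ligase gene. The H3K27ac summit was inside PIAS4, at 4031572, with a score of 5.41, 58.7 kb from MAP2K2. Its region of 219 bases ranked 2352 of 2710, near the bottom of the list.

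MAPK3, the ERK1 gene, lies on chromosome 16 at 30114105 to 30123220, on the minus strand. The higher of its 2 SP1 summits, at 30021497, had a score of 14.4, above 90.6% of the list. It was 92.6 kb away, inside DOC2A, which encodes a sensor of calcium in vesicle release, and 1701 bases from an end of C16orf92. The nearer, at 30065417 with a score of 7.68, was 48.7 kb away and 343 bases before a listed start of ALDOA, the glycolytic aldolase gene, inside its span. The H3K27ac summit lay upstream of MAPK3, at 30177594, 54.4 kb away, with a score of 5.42. It was 6008 bases before the start of CORO1A, which encodes an actin-binding protein of leukocytes. Its region of 219 bases ranked 791 of 2710, the best rank of the 2 H3K27ac regions within 100 kb of a pathway gene.

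Viewed as a set, the 11 SP1 summits lay mostly at starts of neighbouring genes. Within 1000 bases of a listed start lay 9 of the 11 (81.8%), beside 45.7% of all 4950 SP1 summits within 100 kb of a protein-coding gene. Within 1000 bases of a gene end lay 7 (63.6%), beside 49.6%. Their scores ran from 4.65 to 34.5 with a median of 7.72, and that of the 4950 was 6.51. The 11 come from 4 places in the genome, and summits at 1 place are not independent, so these shares are a description. The 4 pathway genes there had 5 to 14 neighbours, beside a median of 4 over all protein-coding genes. Gene density was not accounted for in the shares. Neither of the 2 H3K27ac summits was at a gene end or start, beside 6.50% and 4.81% of all H3K27ac summits within 100 kb of a gene. No SP1 summit within 100 kb of these genes lay within 500 bases of an H3K27ac summit. The closest pair was at PIAS4, 24261 bases apart.

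**Figure D3:**
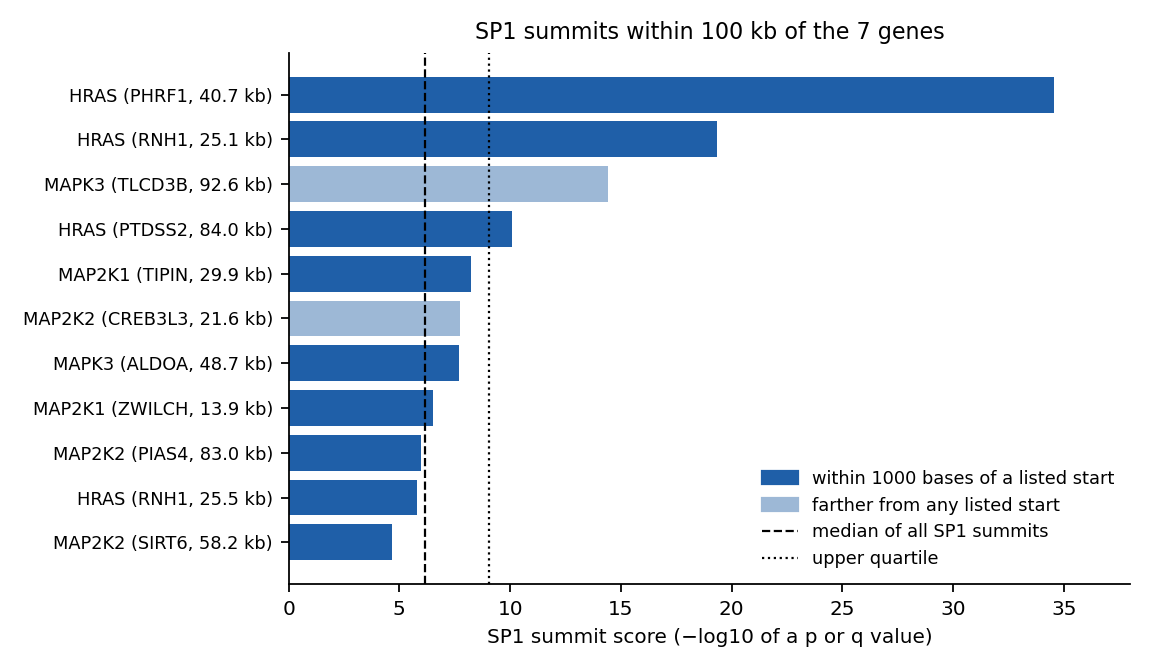
Score of each of the 11 SP1 summits within 100 kb of HRAS, MAP2K1, MAP2K2 or MAPK3, with the gene of the nearest listed start and the distance from the pathway gene in brackets. Lines mark the median (6.17) and the upper quartile (9.04) of all SP1 summits. The 2 highest are at PHRF1 and RNH1 near HRAS, and 4 of the 11 exceed the upper quartile.

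Other genes of the pathway did carry SP1 summits. From a list of 45, chosen with earlier results of these data known, 10 had one at an end (22.2%), beside 13.7% of all protein-coding genes. With only summits above the median score the count was 8. Within 100 kb of the span 24 of 45 had an SP1 summit (53.3%), beside 52.6% of all genes, which is near the background. Relatives of SOS1 and of the RAS genes were among the 10 with a summit at an end. SOS2, the relative of SOS1, had a summit with a score of 5.56, 290 bases outside the low-coordinate end of its span and 114738 bases from its listed start. A second SP1 summit, with a score of 3.91, lay inside the span, 522 bases from that start. RRAS, a RAS-related GTPase gene, had one with a score of 12.6, 465 bases outside an end. SOS2 and RRAS thus had a call where SOS1, NRAS and HRAS had none, in a single library, and no test of these differences was possible. Both SOS2 scores were below the SP1 median of 6.17. The RAS relatives RRAS2 and MRAS had no SP1 summit at an end.

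Among adaptors and exchange factors, 4 of 10 (40%) had an SP1 summit at an end, beside 13.7% of all protein-coding genes. Besides SOS2 these were SHC1, with a score of 17.0, and GRB2, with 5.84, whose products link receptors to SOS proteins. The fourth was SHOC2, with 7.91, whose product helps to activate RAF. The summits at GRB2 and SOS2 scored below the SP1 median of 6.17. Of 3 RAS relatives 1 had one (33.3%), RRAS. Kinases and scaffolds had 1 of 5 (20%), the scaffold gene IQGAP1 at 9.65. Inhibitors had 2 of 13 (15.4%). They were SPRED3, whose family restrains RAF activation, at 19.9, and RASA2, which encodes a GTPase-activating protein for RAS, at 7.28. ERK substrates and target genes had 2 of 14 (14.3%), the transcription factor genes ETV1 and EGR1, both at 10.6. The shares of the inhibitors and of the ERK substrates and target genes are near the background. Those of the RAS relatives and of the kinases and scaffolds rest on 1 gene each, too few to tell from it.

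None of these 45 genes had an H3K27ac summit within 1000 bases of an end, beside 0.848% of all protein-coding genes. Within 100 kb of the span 13 of 45 had one (28.9%), beside 24.0%. Of these, RRAS2 (score 5.10), SOS2 (5.76), RASGRP1 (4.63), KSR2 (3.02), NF1 (4.24), RASA1 (6.41) and SPRED2 (4.68) had an H3K27ac summit inside the span. The share of all protein-coding genes with one inside was 5.66%, and span length was not accounted for. RASGRP1, KSR2, NF1 and SPRED2 were below the H3K27ac median of 5.01, and KSR2 had the lowest score of that list. Summits outside the span lay 1.82 kb from SPRY4, which encodes an inhibitor of receptor signalling, and 5.07 kb from PHLDA1, a target gene of the pathway.

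**Figure D4:**
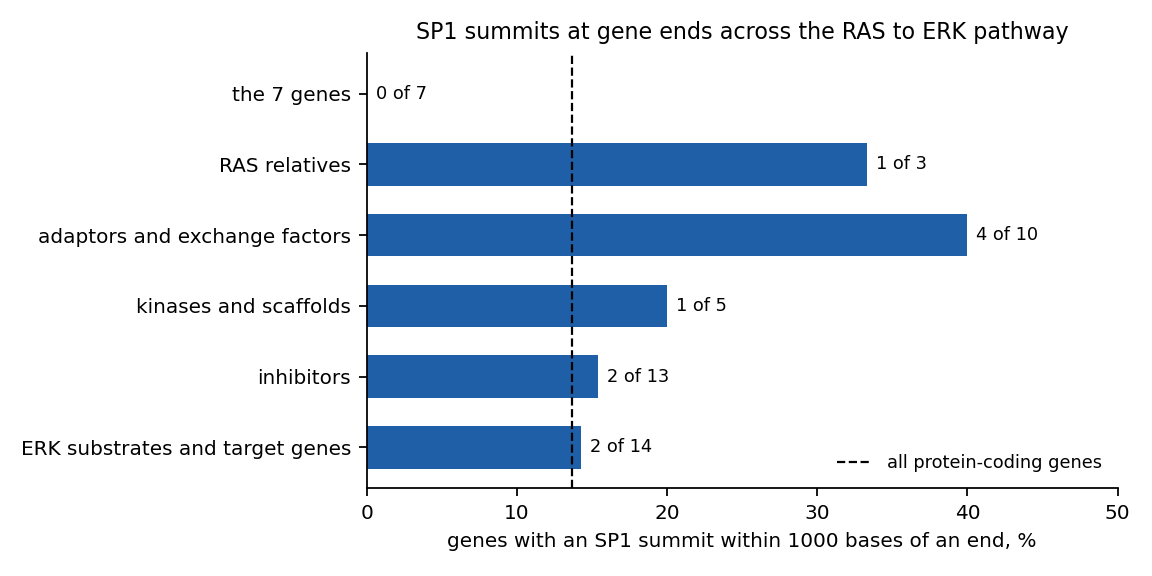
Percent of genes with an SP1 summit within 1000 bases of an end, for the 7 genes and for 5 lists of other genes of the pathway, with the counts beside the bars. The dashed line is the share of all protein-coding genes, 13.7%. The 7 genes stand at 0 of 7, and the adaptors and exchange factors at 4 of 10. Of these 4, GRB2 and SOS2 had only summits below the SP1 median score at an end.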

How the data were processed

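Summits and ranked regions of both libraries were analysed as the authors deposited them. The deposited summit value is a −log10 of a p-value or of a q-value, without saying which. The value deposited with each region is a rank score, in which 1 is the best, and the ranking signal was not given. Per the submitters' processing notes, the build is hg38, and the tools include deepTools 3.4.1 and cutadapt 2.5. For the aligner, the peak caller and its control, no name is given in the sources used here. Item names are numbered without gaps.

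Distances were computed in Python 3.11.15 with pandas 2.3.3 against RefSeq gene spans, and starts and strands came from RefSeq promoters (both GRCh38.p14). A summit was called at a gene end if it was at most 1000 bases from the start or the end of a span. A listed start was available for 15842 of 20037 protein-coding genes, all 7 pathway genes included. The distance calculation was tested on simulated summits. Intervals are exact binomial at 95%. Coordinates are 1-based.

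The 7 genes and all lists were chosen with earlier results of these data known. Named are the 7 genes, the gene with the nearest end for each summit within 100 kb, and list members with a summit at an end, up to 5 a list. Some genes of the lists are not reported here and were left out of the counts. Named outside this rule, after their values were seen, were DOC2A, TLCD3B (in a plot), RPL4, ANKRD24 and the genes nearest to summits beyond 100 kb. So were genes named for a summit near them or for the absence of one.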

Additional observations from a re-analysis of the deposited data

How the results depend on the processing

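No paired analysis was possible because each antibody had a single library. Of 27 alternative counts, 19 stayed within 1.5 times the main count and 8 did not. The counts of 0 of 7 genes with a summit at an end held for SP1 and for H3K27ac within 2500 bases and at listed starts. Within 500 bases, or with only summits above the median or the upper quartile of the score, a count of 0 could not change. Those settings are among the 19 but are no check. A narrower window lowers a count by construction. Within 50 kb the SP1 summits numbered 7 and still came from 4 genes, and within 10 kb both counts were 0. The 2 H3K27ac summits, near 2 genes, were lost at 50 kb and at 10 kb, where both counts were 0. With 2500 bases, 1 of the 45 other pathway genes, SPRY4, had an H3K27ac summit at an end. What depth limits cannot be said, since the files give none.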
